A study of Homo sapiens with 9 samples.

Results

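The 53 genes described here encode proteins of mitosis: the kinases and cyclin partners that start it, the spindle checkpoint, the kinetochore, the mitotic kinesins, the spindle microtubule proteins, the condensin complex and the machinery of cytokinesis. They were chosen by symbol from a list of mitotic genes, and all 53 were found among the 30017 genes of the count table. All 53 were also among the 12712 genes that had enough counts to be tested. The question was how these genes differed between MOLM13 cells with a control hairpin and MOLM13 cells in which DDX41, a DEAD-box RNA helicase, was lowered to different degrees. MOLM13 is a human acute myeloid leukemia cell line. The cells were grown in RPMI with 20% serum and transduced with a GFP-marked pLKO lentivirus made in 293T cells. Each virus expressed sh-Control or 1 of 2 short hairpin RNAs against DDX41, shDDX41 #1 and shDDX41 #2. Cells were sorted on day 4 after transduction, and poly(A) RNA of 3 libraries per group, lettered A, B and D, was sequenced. The study describes its quantified assays in general as biological replicates, but no source says what the letters of these libraries mark, so p-values measure the spread between libraries, which may be technical. The cells were a bulk population, and each hairpin was a single sequence.

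At mitotic entry the kinase CDK1 with cyclin B, helped by Aurora A and PLK1, drives the condensation of chromosomes and the assembly of a bipolar spindle. Kinetochores, built on CENPA-containing centromeres, bind spindle microtubules, and the spindle checkpoint delays anaphase until all chromosomes are attached. The anaphase promoting complex with CDC20 then marks securin and cyclin B for destruction, separase opens cohesin, and the centralspindlin complex, anillin and the contractile ring divide the cell. Most of these genes are transcribed in G2 and mitosis. The DREAM and MuvB complexes, MYBL2 and FOXM1 act on their promoters through the cell cycle genes homology region (CHR), together with NF-Y, which binds CCAAT.

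Libraries held from 16385238 to 20510032 counts. Levels below are CPM, the counts of a gene relative to the scaled total of its library. The scaling (TMM) assumes that most genes do not differ. CPM were not divided by transcript length, so a level is compared between libraries and not between genes. DDX41 itself was at 117, 115 and 113 CPM in libraries A, B and D of sh-Control, 12.2, 12.9 and 9.95 CPM with shDDX41 #1 and 38.9, 39.9 and 42.5 CPM with shDDX41 #2. It was therefore 89.8% lower with shDDX41 #1 (edgeR quasi-likelihood test, adjusted p 4.1e-12) and 64.8% lower with shDDX41 #2 (adjusted p 7.0e-09). An exact two-sided permutation test of 3 libraries against 3 gave p = 0.1 for both, the smallest value that this design allows. The 10 myeloid markers summed to between 2308 and 2492 CPM in sh-Control, 2371 and 2474 CPM with shDDX41 #1 and 3220 and 3271 CPM with shDDX41 #2, and none was at 0 in every library. The higher sum with shDDX41 #2 was mostly LYZ, lysozyme, with means of 931 CPM in sh-Control and 1818 CPM with shDDX41 #2. LYZ (0.96), MPO (0.59) and ITGAM (0.52) were called higher with shDDX41 #2 on the log2 scale, while CD33 (-0.09), SPI1 (-0.06) and FLT3 (-0.04) were not called. With shDDX41 #1, CSF1R was called lower (-0.86) and CD33 (0.25) and FLT3 (0.20) higher. The part of these markers in the results was not tested. ANPEP and CD14 were nearly absent, with group means of at most 0.937 and 0.101 CPM. Markers of erythroid, B and epithelial cells summed to at most 0.445 CPM and those of T cells to at most 2.18 CPM in any library.

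With shDDX41 #1, 52 of the 53 mitotic genes were lower than in sh-Control at an adjusted p under 0.05 (edgeR quasi-likelihood test, Benjamini-Hochberg adjustment over all tested genes), and all 53 fold changes were negative. Of all 12712 tested genes, 24.1% were called lower and 23.7% higher in this comparison. In the same 52 genes every shDDX41 #1 library lay below every sh-Control library, a pattern seen in 26.6% of all genes. The median log2 fold change of the 53 genes was -0.75, with quartiles of -1.03 and -0.61, while the median of all tested genes was 0.01. Fold changes ran from -1.53 for HMMR to -0.06 for BUB3, which was the gene not called. A fall of at least 2-fold was measured for 16 genes, against 396 of all 12712 tested genes called lower by that much. Among all tested genes ranked by fold change, 43 of the 53 lay below the 10th percentile. In bulk RNA, fewer cells in G2 and mitosis and less mitotic mRNA in each such cell cannot be told apart.

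The CPM of the 53 genes were also added up for each library. The sum was 6515, 7291 and 7067 CPM in the A, B and D libraries of sh-Control, 4241, 4477 and 3880 CPM with shDDX41 #1, and 6605, 6733 and 6725 CPM with shDDX41 #2. The shDDX41 #1 libraries were the low ones, with a mean of 4200 ± 301 CPM (SD, n = 3) against 6958 ± 399 CPM in sh-Control, 39.6% less. The shDDX41 #2 mean of 6688 ± 72.0 CPM was 3.88% below sh-Control, and its libraries lay within the range of the sh-Control libraries. Within sh-Control, library A was the lowest, and the median member was 0.17 lower on the log2 scale there than in library B and 0.20 lower than in library D.

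**Figure D1:**
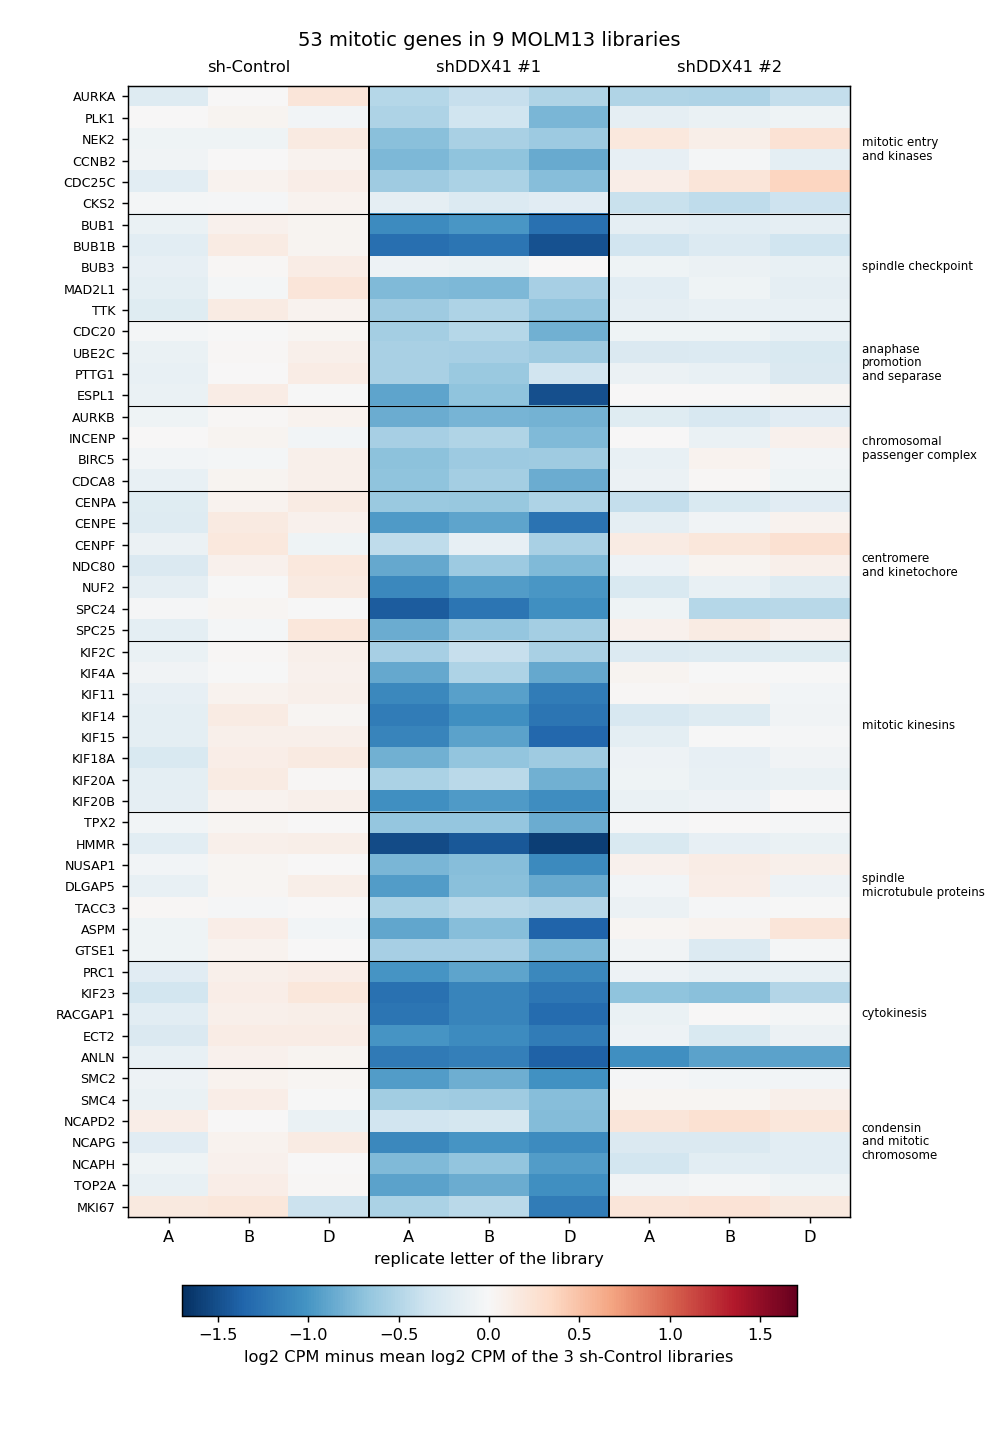
Log2 CPM of each of the 53 mitotic genes (rows, grouped by role) in each of the 9 libraries (columns), minus the mean of the 3 sh-Control libraries. Blue is below and red above that mean; the shDDX41 #1 columns are blue for 52 of 53 genes in all 3 libraries, with HMMR the darkest, while the shDDX41 #2 columns are pale outside ANLN, KIF23, AURKA, CKS2 and SPC24.

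The promoters of 5 of these genes are shown as examples of the CHR and CCAAT motifs. A link between the motifs and the fold changes was not tested. They are the members that hold both motifs among those described by library below, with the smallest adjusted p for shDDX41 #1. Each sequence runs 5′ to 3′ along the gene from 170 bases before to 30 bases after the annotated start (RefSeq, GRCh38.p14). Capitals mark CHR motifs (TTTGAA or TTCGAA, in either orientation) and CCAAT in either orientation. HMMR lies on the plus strand of chromosome 5 (chr5:163460462-163460661), BUB1 on the minus strand of chromosome 2 (chr2:110678034-110678233), KIF20B and KIF11 on the plus strand of chromosome 10 (chr10:89701420-89701619 and chr10:92592960-92593159) and CCNB2 on the plus strand of chromosome 15 (chr15:59104976-59105175).
HMMR: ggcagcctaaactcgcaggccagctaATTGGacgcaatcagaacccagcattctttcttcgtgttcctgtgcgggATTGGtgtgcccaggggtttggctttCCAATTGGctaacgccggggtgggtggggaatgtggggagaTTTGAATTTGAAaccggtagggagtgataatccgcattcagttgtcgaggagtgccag
BUB1: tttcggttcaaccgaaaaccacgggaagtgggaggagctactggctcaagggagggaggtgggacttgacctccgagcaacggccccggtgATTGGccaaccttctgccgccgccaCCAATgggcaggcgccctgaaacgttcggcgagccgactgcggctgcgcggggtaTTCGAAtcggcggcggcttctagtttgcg
KIF20B: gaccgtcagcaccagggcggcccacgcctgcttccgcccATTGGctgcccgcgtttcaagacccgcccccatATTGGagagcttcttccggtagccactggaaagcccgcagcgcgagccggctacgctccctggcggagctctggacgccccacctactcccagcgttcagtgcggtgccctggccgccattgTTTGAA
KIF11: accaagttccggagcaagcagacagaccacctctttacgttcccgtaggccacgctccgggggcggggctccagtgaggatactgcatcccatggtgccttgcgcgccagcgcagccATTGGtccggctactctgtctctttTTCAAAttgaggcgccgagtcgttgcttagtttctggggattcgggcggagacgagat
CCNB2: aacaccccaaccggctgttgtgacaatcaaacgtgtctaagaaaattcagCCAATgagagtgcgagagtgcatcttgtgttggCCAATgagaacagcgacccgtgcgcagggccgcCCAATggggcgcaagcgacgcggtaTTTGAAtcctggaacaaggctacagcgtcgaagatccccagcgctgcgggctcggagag
HMMR held 2 adjacent CHR motifs, and its CCAATTGG reads as CCAAT on both strands, so that the overlapping pair counts as 2. The second CHR motif of KIF20B began just past the printed window.

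Promoter windows of 300 bases, from 250 bases before to 50 after the start, were found for 46 of the 53 members. AURKA, BUB3, TTK, UBE2C, BIRC5, TPX2 and RACGAP1 had no entry. In 38 of the 46 windows the bases just after the start were found in a transcript of the same gene (GENCODE v29). In the others they were not, so motif positions there are less certain. A CHR motif on either strand was present in 36 of the 46 windows (78.3%), against 11.2% of the 9005 windows of tested genes and 16.6% of all 27305 windows. CCAAT on either strand was present in 34 windows (73.9%), against 37.1% of tested genes and 35.7% of all windows. Both motifs were present in 28 members (60.9%, against 4.76% of tested genes), and 4 members held neither. Of the 47 CHR motifs of the members, 35 (74.5%) began within 50 bases of the start, against 27.7% of the 1112 motifs in tested genes. The median log2 fold change for shDDX41 #1 was -0.85 in the 36 members with a CHR motif and -0.63 in the 10 without, and -0.76 in the 34 with CCAAT and -0.98 in the 12 without. For shDDX41 #2 the medians were -0.08 with a CHR motif and -0.13 without. These are descriptions of letters in a window and were not tested.

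**Figure D2:**
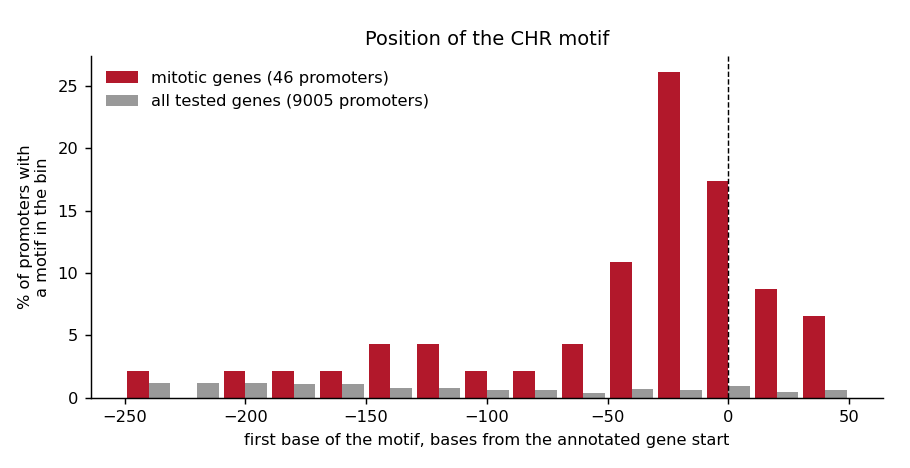
Share of promoter windows (percent) with a CHR motif beginning in each bin of 20 bases, by distance from the annotated gene start, for the 46 mitotic genes with a window (red) and the 9005 tested genes with a window (grey). Most member motifs begin within 50 bases of the start, whereas those of all tested genes are spread over the window.

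Genes of mitotic entry were lower by a median of -0.58 on the log2 scale with shDDX41 #1, and all 6 were called. CCNB2, cyclin B2, measured 100.3, 105 and 109 CPM in sh-Control, 61.5, 65.0 and 57.9 CPM with shDDX41 #1 and 95.4, 102 and 93.2 CPM with shDDX41 #2. The shDDX41 #1 libraries were the low ones and overlapped neither other group. Against sh-Control this was -0.77 ± 0.069 (SE, adjusted p 4.6e-07) with the first hairpin and -0.11 ± 0.067 (SE, adjusted p 0.25) with the second, as log2 fold changes. NEK2, a kinase of centrosome separation, was measured at 33.3, 33.3 and 39.1 CPM in sh-Control, 21.5, 23.8 and 22.8 CPM with shDDX41 #1 and 39.7, 37.7 and 41.6 CPM with shDDX41 #2. Again shDDX41 #1 stood apart below, while shDDX41 #2 overlapped sh-Control. The log2 difference was -0.64 ± 0.086 (SE, adjusted p 2.8e-05) with shDDX41 #1, and the shDDX41 #2 value of 0.17 ± 0.083 (SE, adjusted p 0.15) was not called.

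AURKA and CKS2 followed another pattern, since both fell with each hairpin and neither was called lower with shDDX41 #1 than with shDDX41 #2. AURKA, the Aurora A kinase of spindle poles, stood at 86.5, 101 and 117 CPM in sh-Control, 71.9, 77.0 and 70.6 CPM with shDDX41 #1 and 70.3, 69.9 and 76.1 CPM with shDDX41 #2. Both hairpin groups lay below every control library and overlapped each other. Its log2 fold changes were -0.47 ± 0.091 (SE, adjusted p 0.00064) and -0.49 ± 0.091 (SE, adjusted p 0.0012), and the difference between the hairpins was 0.02 ± 0.092 (SE, adjusted p 0.86). CKS2, a small subunit that binds CDK1, was at 102, 103 and 109.6 CPM in sh-Control, 94.1, 89.1 and 92.0 CPM with shDDX41 #1 and 80.3, 77.4 and 81.8 CPM with shDDX41 #2. No groups overlapped, and here shDDX41 #2 was the lowest. Its log2 fold changes were -0.19 ± 0.062 (SE, adjusted p 0.018) and -0.39 ± 0.062 (SE, adjusted p 0.00035), and CKS2 was the only member called higher with shDDX41 #1 than with shDDX41 #2 (0.20 ± 0.062 (SE, adjusted p 0.015)). The call for shDDX41 #1 was lost without sh-Control library D (adjusted p 0.072) or shDDX41 #1 library B (adjusted p 0.071). The call between the hairpins was lost without shDDX41 #1 library A (adjusted p 0.056) or shDDX41 #2 library B (adjusted p 0.069).

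The spindle checkpoint was split. Its kinases BUB1 and BUB1B fell at least 2-fold with shDDX41 #1, MAD2L1 and TTK fell by less, and BUB3, the partner that carries BUB1 and BUB1B to kinetochores, was not called. BUB1B measured 129, 160.2 and 149.6 CPM in sh-Control, 59.7, 61.4 and 51.9 CPM with shDDX41 #1 and 117, 124 and 115 CPM with shDDX41 #2. The 3 groups did not overlap, with shDDX41 #1 lowest and shDDX41 #2 between. The log2 fold changes were -1.34 ± 0.087 (SE, adjusted p 2.3e-08) and -0.30 ± 0.084 (SE, adjusted p 0.016). BUB1 stood at 162, 185 and 181 CPM in sh-Control, 83.7, 88.2 and 72.6 CPM with shDDX41 #1 and 158, 155 and 158 CPM with shDDX41 #2. The order of the groups was that of BUB1B, without overlap. Only the shDDX41 #1 difference was called (-1.11 ± 0.078 (SE, adjusted p 4.1e-08)), with -0.17 ± 0.076 (SE, adjusted p 0.12) for shDDX41 #2. BUB3 was at 278, 310.4 and 336 CPM in sh-Control, 289.7, 285 and 309 CPM with shDDX41 #1 and 292, 285 and 281 CPM with shDDX41 #2. All groups overlapped. Its log2 difference was -0.06 for shDDX41 #1 (95% interval from -0.22 to 0.09) and -0.11 for shDDX41 #2 (95% interval from -0.26 to 0.05).

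The 4 genes of anaphase promotion all fell with shDDX41 #1, by a median of 0.60 on the log2 scale. CDC20, the activator of the anaphase promoting complex, measured 144, 147 and 151 CPM in sh-Control, 98.9, 106 and 83.8 CPM with shDDX41 #1 and 139.7, 140.3 and 135 CPM with shDDX41 #2. The shDDX41 #1 libraries were well below the rest, and the shDDX41 #2 libraries just below sh-Control. The log2 fold changes were -0.62 ± 0.077 (SE, adjusted p 1.3e-05) and -0.09 ± 0.076 (SE, adjusted p 0.39). UBE2C, the ubiquitin-conjugating enzyme of that complex, was measured at 83.9, 92.4 and 96.9 CPM in sh-Control, 62.2, 61.7 and 59.6 CPM with shDDX41 #1 and 76.8, 77.3 and 75.8 CPM with shDDX41 #2. Its groups formed 3 separate tiers with shDDX41 #2 in the middle. Both falls were called, at -0.57 ± 0.067 (SE, adjusted p 6.9e-06) and -0.25 ± 0.066 (SE, adjusted p 0.013). Counts of PTTG1, securin, are uncertain because near-identical intronless copies exist in the genome.

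In the chromosomal passenger complex, which corrects faulty attachments, 4 of 4 genes fell with shDDX41 #1. AURKB, its Aurora B kinase, was at 48.1, 51.3 and 52.7 CPM in sh-Control, 28.1, 29.3 and 29 CPM with shDDX41 #1 and 43.7, 42.0 and 44.3 CPM with shDDX41 #2. The groups were separate, in the order sh-Control, shDDX41 #2, shDDX41 #1. Log2 fold changes were -0.82 ± 0.069 (SE, adjusted p 2.8e-07) and -0.23 ± 0.067 (SE, adjusted p 0.023). BIRC5, survivin, measured 111, 113 and 122 CPM in sh-Control, 71.2, 74.9 and 76.0 CPM with shDDX41 #1 and 106, 119.9 and 112 CPM with shDDX41 #2. Only the shDDX41 #1 libraries stood apart. Its fold changes were -0.64 ± 0.069 (SE, adjusted p 2.9e-06) and -0.04 ± 0.068 (SE, adjusted p 0.73).

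All 7 centromere and kinetochore members fell with shDDX41 #1, and 3 of them (NUF2, CENPE and SPC24) at least 2-fold. NUF2, a microtubule-binding subunit of the NDC80 complex, was at 47.1, 51.9 and 58.1 CPM in sh-Control, 24.4, 26.9 and 26.3 CPM with shDDX41 #1 and 43.6, 48.0 and 44.8 CPM with shDDX41 #2. The shDDX41 #1 libraries were the low group, and shDDX41 #2 overlapped sh-Control at its upper end. Fold changes were -1.02 ± 0.086 (SE, adjusted p 2.6e-07) and -0.20 ± 0.082 (SE, adjusted p 0.084). CENPE, the kinetochore kinesin that moves chromosomes to the spindle equator, stood at 66.4, 85.8 and 81.1 CPM in sh-Control, 39.7, 41.3 and 32.4 CPM with shDDX41 #1 and 69.3, 74.3 and 80.3 CPM with shDDX41 #2. Only shDDX41 #1 was set apart, with library D its lowest. The fold changes were -1.04 ± 0.11 (SE, adjusted p 1.6e-06) and -0.06 ± 0.10 (SE, adjusted p 0.71). CENPA, the histone H3 variant of centromeres, measured 27.0, 32.5 and 34.2 CPM in sh-Control, 20.0, 19.8 and 21.5 CPM with shDDX41 #1 and 23.5, 26.0 and 27.1 CPM with shDDX41 #2. The shDDX41 #2 libraries were between the other groups and overlapped sh-Control library A. Both differences were called (-0.61 ± 0.099 (SE, adjusted p 0.00014) and -0.29 ± 0.097 (SE, adjusted p 0.038)).

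The 8 mitotic kinesins fell by a median of 0.89 on the log2 scale with shDDX41 #1, and KIF11, KIF14, KIF15 and KIF20B fell at least 2-fold. KIF20B, a kinesin of late cytokinesis, was at 122, 141 and 143 CPM in sh-Control, 65.5, 69.0 and 65.0 CPM with shDDX41 #1 and 125, 127 and 136 CPM with shDDX41 #2. Levels with shDDX41 #1 were set apart from both other groups, which overlapped. The log2 fold changes were -1.03 ± 0.074 (SE, adjusted p 5.5e-08) and -0.07 ± 0.072 (SE, adjusted p 0.54). KIF11, the motor Eg5 that pushes spindle poles apart, measured 144, 165 and 168 CPM in sh-Control, 74.0, 83.3 and 69.5 CPM with shDDX41 #1 and 161, 163 and 153 CPM with shDDX41 #2. The sh-Control and shDDX41 #2 libraries were interleaved, and shDDX41 #1 lay far below. The fall with shDDX41 #1 was -1.07 ± 0.080 (SE, adjusted p 8.2e-08), and the interval of the shDDX41 #2 difference ran from -0.16 to 0.17 on the log2 scale. KIF2C, which depolymerizes microtubules at kinetochores, was measured at 118, 129.9 and 136 CPM in sh-Control, 86.3, 97.3 and 87.4 CPM with shDDX41 #1 and 109, 109.8 and 110.4 CPM with shDDX41 #2. It formed 3 separate tiers, and both falls were called. They were -0.50 ± 0.070 (SE, adjusted p 3.8e-05) and -0.22 ± 0.070 (SE, adjusted p 0.029).

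The 7 spindle microtubule proteins held the member with the deepest fall. HMMR, which organizes spindle poles, measured 86.4, 104 and 105 CPM in sh-Control, 34.0, 36.0 and 32.2 CPM with shDDX41 #1 and 82.0, 89.0 and 90.7 CPM with shDDX41 #2. With shDDX41 #1 every library was far below the rest, whereas shDDX41 #2 overlapped sh-Control library A. The fall with shDDX41 #1 was -1.53 ± 0.085 (SE, adjusted p 5.9e-09) on the log2 scale, leaving 34.6% of the control level, and the difference with shDDX41 #2 was -0.18 ± 0.080 (SE, adjusted p 0.12). TPX2, the activator of Aurora A on spindles, was at 223, 237 and 232 CPM in sh-Control, 147, 147 and 128 CPM with shDDX41 #1 and 228, 232 and 227 CPM with shDDX41 #2. Only the shDDX41 #1 libraries stood apart. Fold changes were -0.72 ± 0.066 (SE, adjusted p 6.4e-07) and -0.01 ± 0.065 (SE, adjusted p 0.92). NUSAP1 and NCAPD2, chosen after their values were seen, were the 2 members whose shDDX41 #2 libraries all lay above sh-Control, with log2 differences of 0.10 (adjusted p 0.40) and 0.21 (adjusted p 0.11), neither of them called. Over all tested genes 21.1% lay higher without overlap in that comparison.

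Cytokinesis was the group with the lowest median, -1.22, and all 5 of its genes fell at least 2-fold with shDDX41 #1. It also held the 2 members with the largest falls for shDDX41 #2. ANLN, anillin, which links the contractile ring to the membrane, measured 90.0, 104 and 102 CPM in sh-Control, 42.7, 44.1 and 37.7 CPM with shDDX41 #1 and 47.7, 52.2 and 52.2 CPM with shDDX41 #2. Both hairpin groups were far below sh-Control, and shDDX41 #1 was the lower without overlap. It fell by 1.25 on the log2 scale with shDDX41 #1 (adjusted p 1.9e-08) and by 0.96 with shDDX41 #2 (adjusted p 9.6e-07), and the difference between the hairpins was -0.29 ± 0.081 (SE, adjusted p 0.0084). KIF23, the motor of centralspindlin, was at 67.6, 91.1 and 96.3 CPM in sh-Control, 34.7, 38.7 and 35.9 CPM with shDDX41 #1 and 52.2, 51.1 and 59.3 CPM with shDDX41 #2. The order of its groups was that of ANLN, again without overlap, and sh-Control library A was the lowest control. Fold changes were -1.22 ± 0.11 (SE, adjusted p 5.7e-07) and -0.65 ± 0.11 (SE, adjusted p 0.00055), with -0.57 ± 0.11 (SE, adjusted p 0.00069) between the hairpins. RACGAP1, the partner of KIF23 in centralspindlin, stood at 91.0, 109 and 109.7 CPM in sh-Control, 43.5, 47.1 and 41.3 CPM with shDDX41 #1 and 94.7, 103 and 101 CPM with shDDX41 #2. Unlike KIF23, its shDDX41 #2 libraries lay within the range of sh-Control. It fell with shDDX41 #1 (-1.23 ± 0.083 (SE, adjusted p 2.9e-08)), and its shDDX41 #2 difference was -0.05 ± 0.079 (SE, adjusted p 0.66) (95% interval from -0.22 to 0.11).

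**Figure D3:**
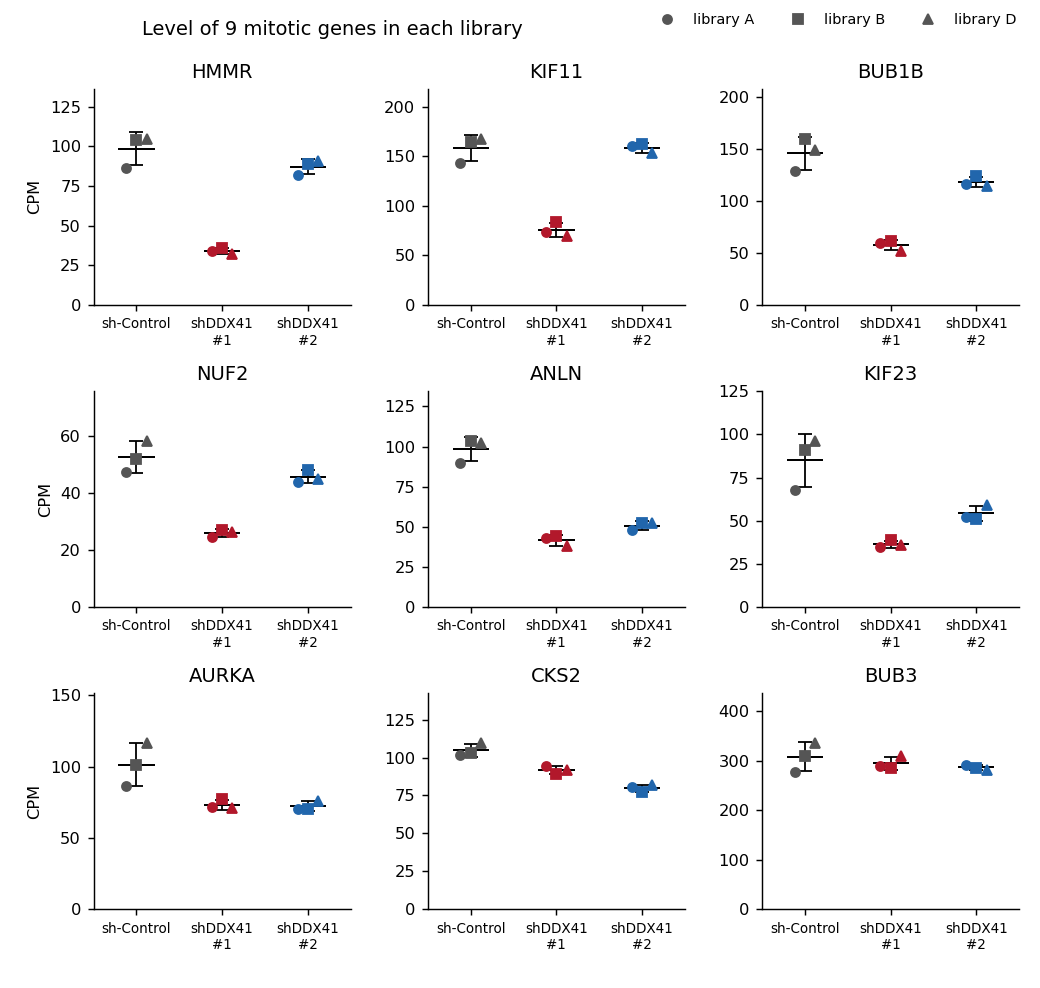
CPM of 9 mitotic genes in each library, with the group mean and SD (n = 3) as bars and a symbol for each replicate letter; axes start at 0. HMMR, KIF11, BUB1B and NUF2 are low with shDDX41 #1, ANLN and KIF23 are low with both hairpins, AURKA is low with both to a like degree, CKS2 is lowest with shDDX41 #2, and the groups of BUB3 overlap.

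All 7 genes of condensin and the mitotic chromosome fell with shDDX41 #1, by a median of 0.79 on the log2 scale. SMC2, a core ATPase of both condensins, was at 174, 192 and 189 CPM in sh-Control, 95.6, 104 and 90.6 CPM with shDDX41 #1 and 182, 179 and 179 CPM with shDDX41 #2. The shDDX41 #1 libraries stood apart and the other groups overlapped. Its fold changes were -0.94 ± 0.068 (SE, adjusted p 5.7e-08) and -0.04 ± 0.066 (SE, adjusted p 0.69). NCAPG, a subunit of condensin I, measured 121, 144 and 153 CPM in sh-Control, 64.7, 69.0 and 65.9 CPM with shDDX41 #1 and 117, 117 and 122 CPM with shDDX41 #2. The shDDX41 #2 libraries overlapped sh-Control library A. Both differences were called, at -1.07 ± 0.081 (SE, adjusted p 9.6e-08) and -0.23 ± 0.079 (SE, adjusted p 0.042). NCAPH, the kleisin of condensin I, was measured at 87.4, 96.4 and 92.4 CPM in sh-Control, 54.5, 57.5 and 47.7 CPM with shDDX41 #1 and 74.3, 81.4 and 81.0 CPM with shDDX41 #2. Its 3 groups were separate. The fold changes were -0.79 ± 0.078 (SE, adjusted p 1.2e-06) and -0.22 ± 0.076 (SE, adjusted p 0.043).

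MKI67, which coats mitotic chromosomes and is a common marker of proliferation, was chosen after its values were seen because its D libraries stood out. It measured 485, 495 and 335 CPM in sh-Control, 298, 315 and 189.9 CPM with shDDX41 #1 and 498, 509 and 485 CPM with shDDX41 #2. Library D was the lowest in sh-Control and in shDDX41 #1, and the groups of those 2 still did not overlap (-0.71 ± 0.16 (SE, adjusted p 0.0018)). MKI67 had the longest transcript of the members. In the 10 members with the longest transcripts, library D differed from the mean of A and B by a median of 0.04 in sh-Control, -0.22 with shDDX41 #1 and 0.06 with shDDX41 #2 on the log2 scale, against 0.13, -0.13 and 0.02 in the other 43. Without the D libraries of sh-Control and shDDX41 #1, 52 members were still called lower with shDDX41 #1. This alternative was added after seeing the data, and the median of all 53 members in it was -0.67.

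With shDDX41 #2, 11 of the 53 genes were lower than in sh-Control and 0 were higher, while 13.4% of all tested genes were called lower and 11.6% higher. They were AURKA, CKS2, BUB1B, UBE2C, AURKB, CENPA, KIF2C, KIF23, ANLN, NCAPG and NCAPH, which come from 8 of the 9 roles. This is 20.8% of the members, and ANLN fell the most, by 0.96 on the log2 scale. In 13 members every shDDX41 #2 library lay below every sh-Control library, against 22.7% of all genes. The median of the 53 genes was -0.11, with 40 negative and 13 positive values, and that of all tested genes was -0.01. At an unadjusted p under 0.05, 16 members passed, 1 of them higher, against 37.4% of all tested genes, and 0 members were called higher by DESeq2 or limma voom. In 41 of the 42 members not called, the 95% interval of the log2 difference lay above -0.5, and the exception was SPC24, with a lower bound of -0.61.

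The count of 11 moved with single libraries. It was 17 without sh-Control library A and 5 without sh-Control library B or D. It was 6 without shDDX41 #2 library A or B and 4 without shDDX41 #2 library D. ANLN, KIF23, AURKA and CKS2 were called in each of 20 alternative fits, BUB1B in 17 and UBE2C in 18, AURKB and KIF2C in 14, CENPA in 12, and NCAPG and NCAPH in 11. TTK, NUF2, KIF14, HMMR, PRC1 and ECT2 were gained without sh-Control library A.

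**Figure D4:**
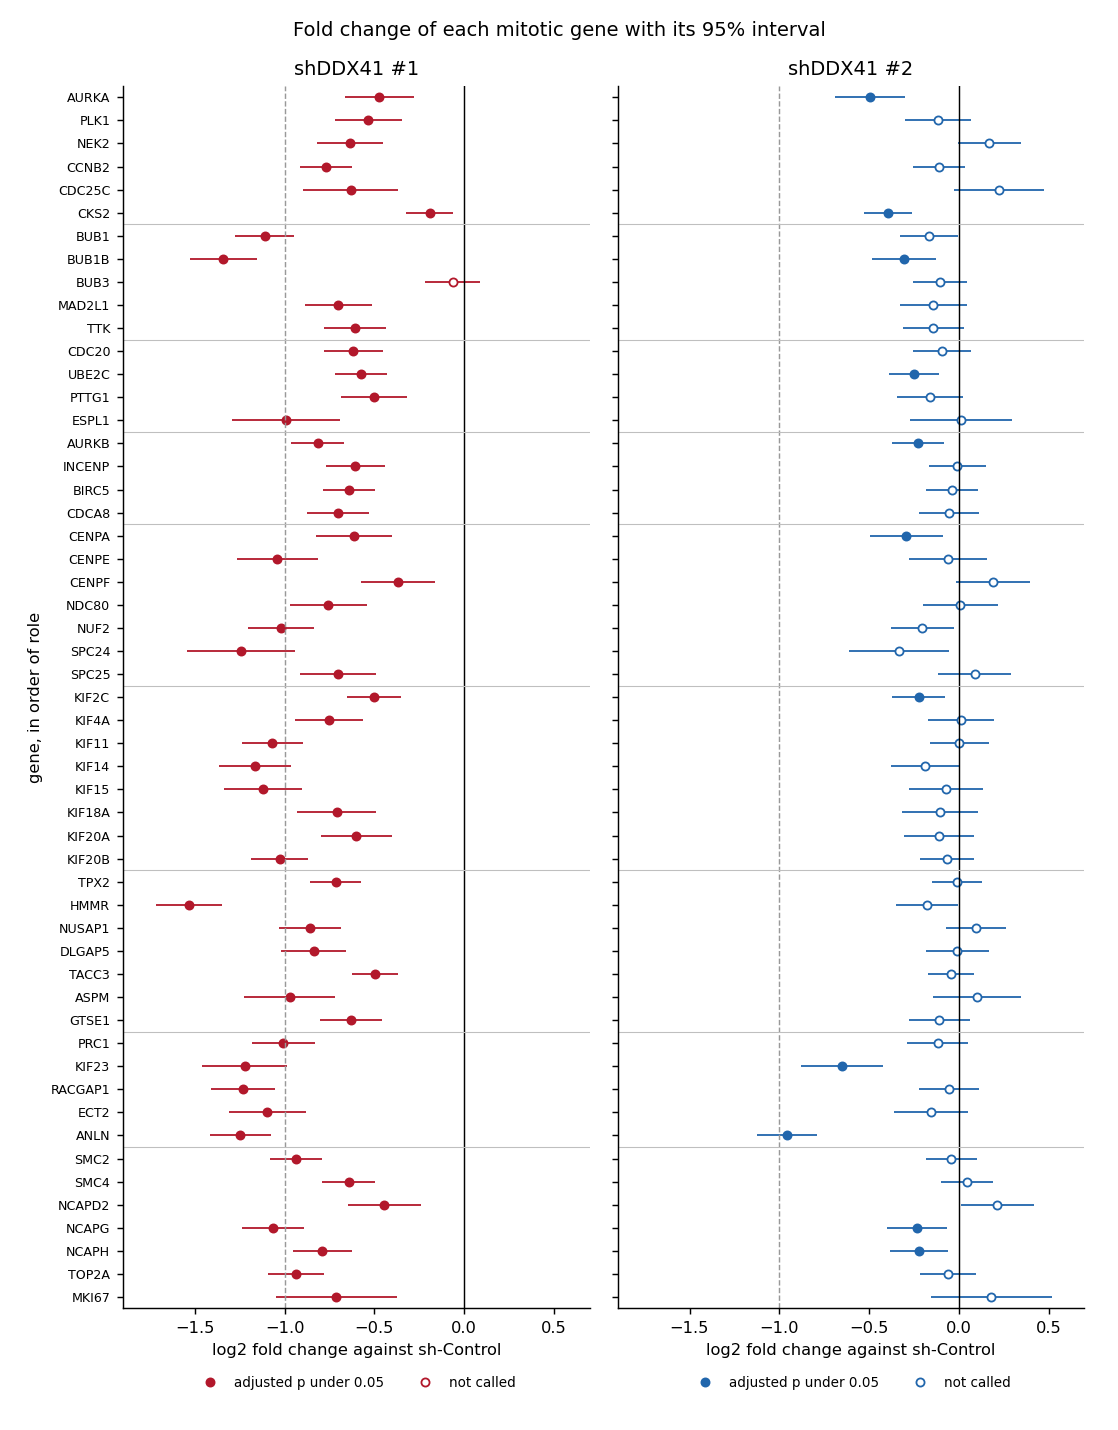
Log2 fold change of each of the 53 mitotic genes against sh-Control (points) with its 95% interval (lines), for shDDX41 #1 (left) and shDDX41 #2 (right), in order of role; filled points passed an adjusted p under 0.05 and the dashed line marks a 2-fold fall. With shDDX41 #1 all intervals but that of BUB3 lie below 0, and with shDDX41 #2 ANLN and KIF23 lie farthest left while most intervals span 0.

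The hairpins were compared with each other directly. The 2 comparisons with sh-Control share the control libraries, so only this contrast tests whether the hairpins differ. With shDDX41 #1, 50 members were lower than with shDDX41 #2, and every library of one group lay below every library of the other in those 50 genes. Of all tested genes 24.2% were called lower, 24.6% higher and 28.5% lay lower without overlap. The median of the members was -0.70 against 0.01 for all tested genes. CKS2 was the member called higher, and AURKA and BUB3 were not called. HMMR (-1.36), RACGAP1 (-1.18), KIF11 (-1.07), ASPM (-1.07), KIF15 (-1.05), BUB1B (-1.04) and ESPL1 (-1.001) were at least 2-fold lower with shDDX41 #1 than with shDDX41 #2. Of all 12712 tested genes, 396 were called lower by at least 2-fold in this contrast. Over all 3 contrasts, 41 members were lower with shDDX41 #1 than in both other groups with no call for shDDX41 #2. Another 9 members (BUB1B, UBE2C, AURKB, CENPA, KIF2C, KIF23, ANLN, NCAPG and NCAPH) were called in the order sh-Control, shDDX41 #2, shDDX41 #1. The shares of all tested genes with these joint patterns were not counted, so the 2 counts have no background beside them.

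**Figure D5:**
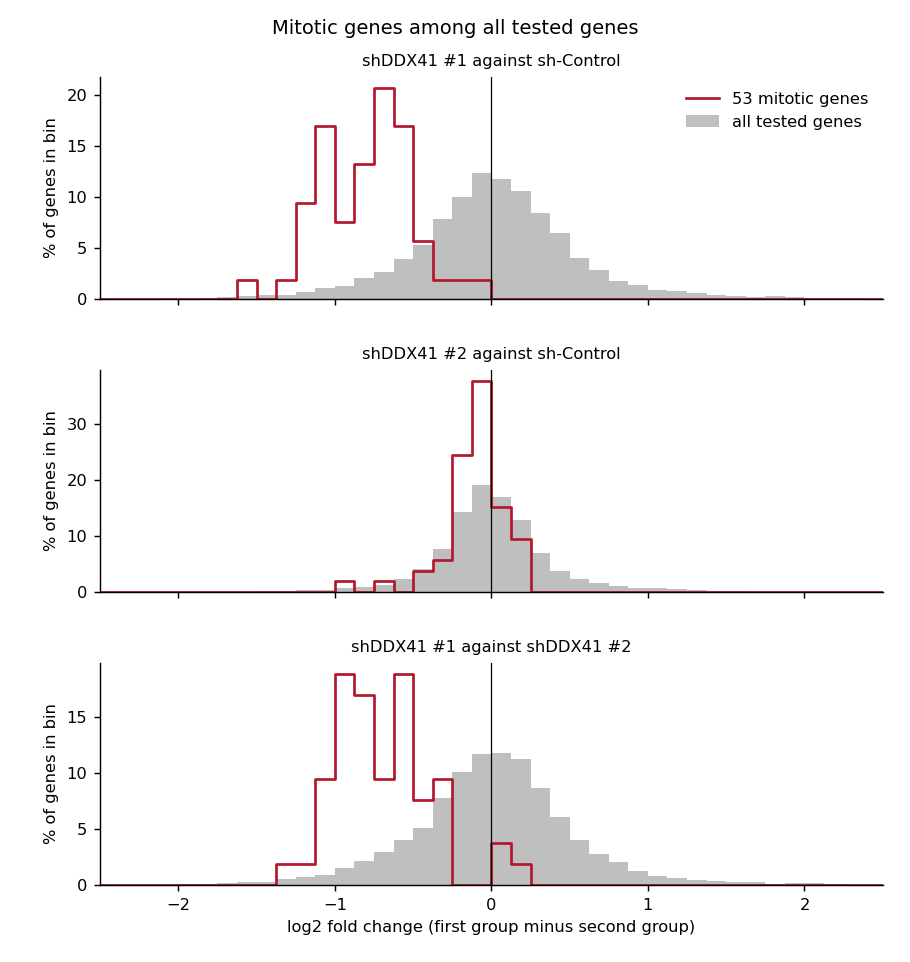
Share of genes (percent) in bins of log2 fold change for the 53 mitotic genes (red line) and all 12712 tested genes (grey bars), in the 3 contrasts. The members lie left of 0 for shDDX41 #1 against sh-Control (median -0.75) and against shDDX41 #2 (median -0.70), and near the centre of all genes for shDDX41 #2 against sh-Control (median -0.11).

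Related gene lists outside the 53 members were counted in the same fits. Of all tested genes, 24.1% were called lower and 23.7% higher with shDDX41 #1. With shDDX41 #2 these shares were 13.4% and 11.6%. Of 30 other kinetochore and centromere genes, 29 fell with shDDX41 #1, with a median of -0.81, and examples were CENPN (-1.03, adjusted p 2.3e-08) and CENPU (-1.18, adjusted p 2.3e-08), subunits of the inner kinetochore. With shDDX41 #2, 9 of these 30 were called lower and 1, SKA2, higher. The 9 became 4 without sh-Control library B or shDDX41 #2 library B or D. The higher calls became 2 without any 1 of the shDDX41 #1 libraries. Higher calls were also 2 under DESeq2, limma voom, upper quartile scaling, no filter, a replicate block or with only the 6 libraries compared. All 3 condensin II subunits fell with shDDX41 #1, by a median of 1.20 on the log2 scale, and for shDDX41 #2 0 were called, nor did any pass an unadjusted p under 0.05. They included NCAPH2 (-1.20, adjusted p 1.8e-08) and NCAPG2 (-1.41, adjusted p 1.2e-07). Of 9 centriole and centrosome genes, 8 fell with shDDX41 #1, among them PLK4 (-1.13, adjusted p 5.4e-08), the kinase that starts centriole duplication, and TUBG1 (-0.88, adjusted p 9.5e-07), the gamma-tubulin of microtubule nucleation. For shDDX41 #2, 3 of the 9 were called lower, but 0 were without sh-Control library B or shDDX41 #2 library B or D, and 1 without shDDX41 #2 library A. CDK1 (-1.37, adjusted p 3.7e-08) and PKMYT1 (-1.68, adjusted p 4.7e-09), its inhibitory kinase, led the 9 of 11 entry regulators that fell with shDDX41 #1, and 2 of the 11 were lower with shDDX41 #2. The latter count was 4 without sh-Control library A or shDDX41 #1 library D.

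Of 13 cohesin genes 11 fell with shDDX41 #1, with a median of -0.40, and among them SMC3 (-0.92, adjusted p 3.5e-08), a core ring subunit, and SGO1 (listed as SGOL1, -1.60, adjusted p 1.2e-07), the shugoshin that protects cohesin at centromeres. For shDDX41 #2, 0 of the 13 cohesin genes were called, and 2 of them had an unadjusted p under 0.05. This 0 became 3 lower calls without shDDX41 #1 library D, 1 without sh-Control library A or D, and 2 with a replicate block or with only the 6 libraries compared. Of 15 subunits and activators of the anaphase promoting complex, 6 fell with shDDX41 #1, by a median of -0.20 over the 15, among them ANAPC5 (-0.40, adjusted p 4.7e-05) and CDC27 (-0.40, adjusted p 0.00043). Without sh-Control library D or shDDX41 #1 library B, 1 of the 15 was also called higher. With shDDX41 #2, 2 of the 15 were lower and 1 higher, against 13.4% lower and 11.6% higher of all tested genes. The lower calls were 0 without library B of sh-Control or of shDDX41 #2, and 1 without any 1 of the other libraries of these groups. Of the 9 transport kinesins that could be tested, out of 11, 5 fell and 1 rose with shDDX41 #1. Their median was -0.22, against -0.89 for the 8 mitotic kinesins. KIF13B (-0.59, adjusted p 2.9e-05) and KIF21B (-0.52, adjusted p 0.00030) fell and KIF3A (0.76, adjusted p 0.0097) rose. KIF3A was no longer called without the D libraries of sh-Control and shDDX41 #1 (0.61, adjusted p 0.062). With shDDX41 #2, 2 transport kinesins were lower and 2 higher. Without 1 library the lower calls were 0 (sh-Control B, shDDX41 #2 A or B) or 1 (sh-Control A or D, shDDX41 #1 A or B, shDDX41 #2 D). The higher calls were 0 without shDDX41 #2 library B and 1 without sh-Control library B or D, shDDX41 #1 library A or shDDX41 #2 library A. Of 13 regulators of mitotic transcription, 9 fell with shDDX41 #1 and 1 rose. MYBL2 (-1.03, adjusted p 1.5e-07) and the pocket protein RBL1 (-0.81, adjusted p 1.3e-06) fell, and NFYC (0.30, adjusted p 0.0052), a subunit of NF-Y, rose. With shDDX41 #2, 1 of the 13, NFYA, was called lower and 1, RBL2, higher. The lower call was lost without sh-Control library B or any 1 of the shDDX41 #2 libraries, and the higher call without sh-Control library A or D or any 1 of the shDDX41 #2 libraries.

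Exons of 16 members overlap those of another gene in GENCODE v29, 14 of them a gene on the opposite strand. The strand setting of the counting is not given in the sources used here, so reads of such pairs cannot be told apart. In CDC25C, KIF18A, KIF20A, NCAPD2, NCAPG and SMC4 the overlapping gene reached more than 10% of the member's highest CPM. The highest values ranged widely. FAM53C reached 144 CPM against 15.2 CPM for CDC25C, CDC23 77.9 CPM against 79.5 CPM for KIF20A, and TRIM59 63.8 CPM against 552 CPM for SMC4. For RACGAP1 the overlapping AQP6 was at 0 CPM in every library, and for ANLN the overlapping KIAA0895 reached at most 0.364 CPM. HMMR, KIF23, KIF2C, BUB1B, PLK1, MAD2L1, NUSAP1 and PRC1 overlap transcripts that have no row of their own in the table. For BUB1B, NUSAP1 and PRC1 such a transcript lies on the same strand. The share of these transcripts in the counts was not tested.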

How the data were processed

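RNA-seq was made from 9 libraries of MOLM13 cells, 3 per group, grouped by their titles in the labels. Per the labels, RNA was column-purified and prepared with a stranded TruSeq mRNA kit, while the study's methods name a TruSeq kit without that property. The submitters' processing notes list FastQC 0.11.7, HISAT2 2.0.5 and featureCounts 1.5.2, with the builds mm10 and hg38 and no role for either. The annotation and counting settings are not given in the sources used here. The authors deposited raw counts per gene symbol, not normalized, and all 9 columns matched a label.

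The count table was tested with edgeR 4.0.16 (R 4.3.3). Its filterByExpr (minimum count 10) kept 12712 of 30017 genes, totals were scaled by TMM, and glmQLFit and glmQLFTest were run over all 9 libraries, which share an estimate of the spread, with 3 two-sided contrasts. A call is a Benjamini-Hochberg adjusted p under 0.05 over all tested genes. The standard error (SE) is the fold change divided by the square root of F, and 95% intervals use the moderated degrees of freedom. Library scores used log2 CPM with a prior count of 2. The script was tested on simulated counts. Totals ran from 16385238 to 20510032 counts, and the SE of the members from 0.060 to 0.16 on the log2 scale. Counting error is only part of that SE.

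The members and lists were chosen with earlier results of these data known. Values by library are given for the 2 members of each role with the smallest adjusted p for shDDX41 #1, every member called for shDDX41 #2, not called for shDDX41 #1 or called higher. From the other lists at most 2 genes per direction are named. KNL1, WAPL, SGO1 and SGO2 were matched by older symbols. Promoters come from RefSeq (GRCh38.p14) and exon overlaps and transcript lengths from GENCODE v29, both matched by symbol. Alternatives covered scaling, filter, DESeq2 1.42.0, limma 3.58.1 (voom), a replicate block, the libraries fitted, the threshold and leaving out each library. No 2 libraries of a group agreed within sampling noise (chi-square per degree of freedom 2.46 to 19.2).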

Additional observations from a re-analysis of the deposited data

Results flagged for a closer look

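No member was called in opposite directions by the hairpins, but 2 genes of the related lists were. Both were picked by those calls. The contrast between the hairpins uses the same libraries, so it gives the size of their difference and is not an independent test. The share of all tested genes called in opposite directions was not counted. SKA2, a subunit of the SKA complex that holds kinetochores on microtubules, measured 56.3, 58.3 and 66.6 CPM in sh-Control, 35.6, 33.5 and 33.2 CPM with shDDX41 #1 and 92.8, 90.1 and 85.3 CPM with shDDX41 #2. No groups overlapped. It fell by 0.83 on the log2 scale with shDDX41 #1 (edgeR, adjusted p 7.1e-07) and rose by 0.57 with shDDX41 #2 (adjusted p 6.6e-05), and the hairpins differed by -1.39 (adjusted p 5.3e-09). RBL2, the p130 pocket protein of the DREAM complex, measured 119, 135 and 124 CPM in sh-Control, 95.4, 101 and 86.1 CPM with shDDX41 #1 and 151, 145 and 146 CPM with shDDX41 #2. Its groups did not overlap either. It fell by 0.42 with shDDX41 #1 (adjusted p 0.00028) and rose by 0.23 with shDDX41 #2 (adjusted p 0.031), and the hairpins differed by -0.65 (adjusted p 4.6e-06). The rise of RBL2 with shDDX41 #2 was no longer called with library size only (adjusted p 0.080) or without sh-Control library A or D or any 1 of the shDDX41 #2 libraries (adjusted p from 0.077 to 0.11).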

How the results depend on the processing

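With shDDX41 #1 against sh-Control, 51 to 52 members were called lower in every alternative, and CKS2 was the call lost under upper quartile scaling, with only the 6 libraries compared, without sh-Control library D and without shDDX41 #1 library B. Upper quartile scaling moved the median of all genes to 0.09 and the split of all genes to 2453 lower and 3849 higher, against 3068 and 3010. The median of the members moved to -0.67 without the D libraries of sh-Control and shDDX41 #1. For shDDX41 #2 the 11 lower calls became 7 under upper quartile scaling and 4 at an adjusted p under 0.01, and ranged from 4 to 17 when 1 library was left out. The 0 higher calls for shDDX41 #2 became 1 with no filter, 2 with only the 6 libraries compared and 2 without both D libraries, and ranged from 0 to 2 when 1 library was left out (2 without shDDX41 #1 library D). The single member called higher with shDDX41 #1 than with shDDX41 #2 was lost at an adjusted p under 0.01 (0 members), and its count ranged from 0 to 1 when 1 library was left out. Of the calls between the hairpins 49 to 51 of 51 were kept. The causes were not tested.

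The replicate letters did not pair the libraries across all 3 groups. Correlations of same-letter deviations ran from -0.057 to 0.24, and 2 of 9 were over 0.1. In 5 of the 9 same-letter pairs between groups the own letter gave the highest correlation. Among them were all 3 pairs of sh-Control with shDDX41 #1, at 0.073 (A), 0.16 (B) and 0.24 (D), so a shared letter effect between these 2 groups is possible. With the letter as a replicate block, 52 and 11 members were lower for shDDX41 #1 and shDDX41 #2, and 1 member, NCAPD2, was called higher for shDDX41 #2.

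Among the members described by library, signs turned only for those near 0. BUB3 for shDDX41 #1 became 0.012 under upper quartile scaling and ranged from -0.13 to 0.000663 without 1 library. For shDDX41 #2, TPX2 became 0.023 under upper quartile scaling (-0.036 to 0.014 without 1 library), KIF11 became -0.018 with library size only (-0.065 to 0.043 without 1 library) and BIRC5 became 0.014 without both D libraries (-0.086 to 0.0057 without 1 library). CENPE ranged from -0.16 to 0.022, and AURKA between the hairpins from -0.019 to 0.061, without 1 library. Members not described by library also changed sign for shDDX41 #2, such as NDC80 (-0.10 to 0.10) and DLGAP5 (-0.076 to 0.051) over the 20 alternative fits.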
